A study of Mus musculus with 16 samples.

Results

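The 8 genes described here are best known from liver and were listed as genes that pancreatic β-cells also use: Ttr, Rbp4, Adh1 and Ambp, which encode secreted carriers and an enzyme, and Hnf4a, Hnf4g, Foxa1 and Foxa3, which encode transcription factors. They were listed by name from earlier results of these same libraries, among the 23329 genes of the mouse count table, so their differences between groups are a description and carry no test. All 8 were found, and 5 of the 8 (Ttr, Rbp4, Adh1, Ambp and Hnf4a) passed the filter on low counts. The data go against that listing for part of them: Foxa1 had a count of 0 in all 4 wild-type vehicle libraries of the β-cell line, and in human β-cells the medians of ADH1A, ADH1B and FOXA1 were 0 CPM. The 16 libraries were polyadenylated RNA of BetaTC6 cells, a mouse insulinoma line on a C57BL/6 background, in 4 groups of 4: wild type with vehicle (DMSO), wild type with ivermectin, a line labelled P2ry1 knockout with vehicle and the same line with ivermectin. All 4 groups were grown for 3 days, held in buffer without glucose and stimulated for 30 min in buffer with 20 mM glucose. Ivermectin is a drug against parasites, and P2ry1 encodes a receptor for extracellular nucleotides. The labels do not give the number of clones behind the knockout line, so a difference between the lines cannot be told apart from a difference between clones. They also do not say whether libraries of 1 group came from separate cultures, so the errors below measure the spread between these libraries.

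Ttr encodes transthyretin, which carries thyroxine and, bound to retinol-binding protein, vitamin A in blood. Rbp4 encodes that retinol-binding protein, Adh1 an alcohol dehydrogenase that oxidises ethanol and retinol, and Ambp the precursor of a lipocalin and of the protease inhibitor bikunin. HNF4 proteins are nuclear receptors and FOXA proteins are winged-helix factors that can open chromatin, and both families act at many liver promoters. HNF4A also acts in β-cells, and its loss in people causes an inherited diabetes of early onset. Alb, the gene of serum albumin, is the reference here: it is the leading transcript of hepatocytes and is not part of the known β-cell programme.

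Library totals ranged from 893088 to 2013242 counts, and levels are given as CPM (counts scaled to a common total with edgeR's TMM factors). With 3 counts as the limit, and for counting error only, a gene without a count could be at 1.49 CPM in the deepest and 3.36 CPM in the shallowest library. Wild-type ivermectin replicate 4 stood apart, with 2.99% of its counts in the ribosomal precursor Rn45s against 0.139 to 0.601% elsewhere, and leaving it out changed no call among the 5 genes that passed the filter. P2ry1 did not separate the labels: it was at 85.5 to 106 CPM in single wild-type libraries and at 72.8 to 94.8 CPM in single libraries labelled knockout, and a small edit of the sequence would not show in counts. The 9 β-cell markers summed to 30212 to 41115 CPM in every library. The 2 δ-cell markers (Sst, Hhex) summed to 201 to 251 CPM in wild-type libraries and to 13.9 to 27.2 CPM in libraries labelled knockout. The 4 α-cell markers summed to 279 to 342 and 218 to 266 CPM in the same order. Of 4 ductal markers, Krt19 had a count of 0 in all 16 libraries, and the sum was 8.80 to 17.5 CPM in wild type and 0.571 to 9.70 CPM in the line labelled knockout. The 4 acinar markers summed to at most 3.06 CPM, with Cpa1 at 0 in all libraries. The 16 hepatocyte genes summed to 643 to 1869 CPM in wild-type vehicle, 136 to 365 in wild-type ivermectin, 54.2 to 115 in knockout vehicle and 77.0 to 279 in knockout ivermectin libraries, and none of them was at 0 across a group.

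The promoters of 4 genes are printed because the values below turn on them: Ambp and Foxa1 differ most between the lines, Rbp4 shares with Alb the higher level in wild-type vehicle than in wild-type ivermectin libraries, and Alb is the reference. Each is the 250 bases before the start of a RefSeq transcript, on the gene's strand, from RefSeq on GRCm38.p6. Promoter entries were matched for 6 of the 8 genes and for Alb. Capitals mark matches, on either strand, to the FOXA motifs TGTTTAC and TGTTTGC, and the HNF4 half-site CAAAGTC, which is part of the longer CAAAGTCCA.
Ambp: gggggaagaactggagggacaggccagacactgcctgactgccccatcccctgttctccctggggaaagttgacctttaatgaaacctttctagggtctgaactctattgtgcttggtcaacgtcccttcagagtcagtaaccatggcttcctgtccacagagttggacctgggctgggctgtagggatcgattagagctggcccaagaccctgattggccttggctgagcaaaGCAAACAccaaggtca
Foxa1: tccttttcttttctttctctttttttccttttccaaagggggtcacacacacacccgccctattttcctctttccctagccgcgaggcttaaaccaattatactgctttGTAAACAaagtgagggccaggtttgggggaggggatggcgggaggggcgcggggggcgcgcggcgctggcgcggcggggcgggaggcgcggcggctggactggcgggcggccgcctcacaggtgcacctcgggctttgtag
Rbp4: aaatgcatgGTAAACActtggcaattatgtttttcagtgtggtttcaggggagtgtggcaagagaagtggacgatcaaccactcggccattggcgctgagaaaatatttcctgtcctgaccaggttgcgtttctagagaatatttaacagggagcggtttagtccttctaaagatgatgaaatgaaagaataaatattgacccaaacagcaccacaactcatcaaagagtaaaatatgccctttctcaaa
Alb: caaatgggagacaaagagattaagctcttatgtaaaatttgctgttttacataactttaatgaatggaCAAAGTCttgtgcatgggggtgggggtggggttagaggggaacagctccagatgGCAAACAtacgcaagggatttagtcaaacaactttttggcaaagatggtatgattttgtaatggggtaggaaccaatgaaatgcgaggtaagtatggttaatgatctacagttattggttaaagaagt
These windows lie at chr4:63154173-63154422 on the minus strand for Ambp, chr12:57546112-57546361 on the minus strand for Foxa1, chr19:38125322-38125571 on the minus strand for Rbp4 and chr5:90460620-90460869 on the plus strand for Alb. The genes themselves span chr4:63143275-63154172, chr12:57540628-57548029, chr19:38116620-38125321 and chr5:90460870-90476602.

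The Ambp window held the second FOXA form on the opposite strand from position -16 relative to the start, and the Foxa1 and Rbp4 windows the first FOXA form on the opposite strand from -141 and -241. The Alb window held the second FOXA form on the opposite strand from -128 and an HNF4 half-site from -182. Of 32851 mouse promoter windows of the same length, TGTTTAC was in 3.17%, TGTTTGC in 4.30%, CAAAGTC in 3.84% and CAAAGTCCA in 0.384%. The windows of Adh1 and Foxa3, a second window of Rbp4 and both windows of Hnf4a held none of these letters. A match describes the letters of a window and says nothing of binding. The count files list 1 transcript of Hnf4a, which starts at chr2:163547155, within the gene at chr2:163506811-163572907. RefSeq also holds 3 transcripts that start upstream, at 163506811 or 163506857, and are not listed there, so use of the upstream and downstream promoters cannot be told apart.

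Per transcript length, the levels of the 8 genes in wild-type vehicle libraries fell in the order Ttr, Adh1, Rbp4, Ambp, Hnf4a and then Foxa3, Hnf4g and Foxa1. On the TPM scale (deposited abundance corrected for transcript length and library total, n = 4) Ttr was at 881 ± 44.5 (SD), Adh1 at 272 ± 32.9, Rbp4 at 163 ± 27.9 and Ambp at 119 ± 11.5. Hnf4a was at 13.3 ± 1.76 TPM, Foxa3 at 2.08 ± 1.40 and Hnf4g at 1.53 ± 1.16, and Foxa1 was listed at 0 in all 4 libraries. Foxa3 and Hnf4g did not differ beyond their spread. Ttr ranked 104 to 161 among the 23329 genes over the 16 libraries, and Hnf4a ranked 6755 to 8095. For scale, Ins2, an insulin gene, was at 122540 ± 3696 TPM in the same libraries (SD, n = 4).

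**Figure D1:**
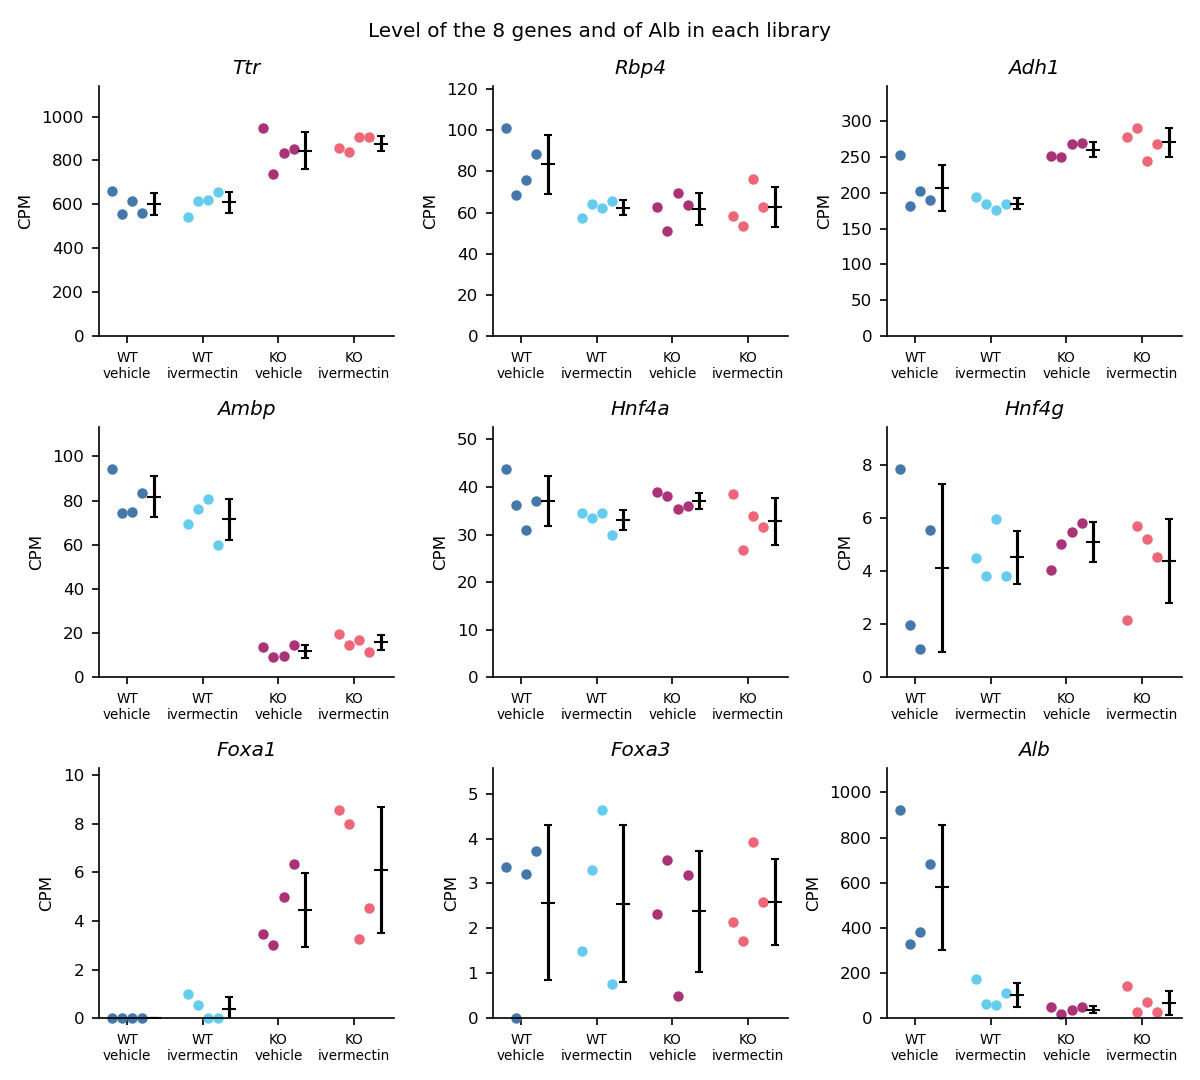
CPM (y axis, from 0, a separate scale per gene) of the 8 genes and of Alb in each of the 16 libraries; points are libraries in replicate order within a group, and the bar beside them is the mean ± SD (n = 4). Ttr lies between 543 and 663 CPM in wild type (WT) and between 740 and 949 CPM in the line labelled knockout (KO), Ambp is at 59.7 CPM or more in WT and 19.8 CPM or less in KO, and Alb is at 328 CPM or more in the WT vehicle libraries alone.

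Ttr was higher in the line labelled knockout in both treatments. Its level was 663, 558, 617 and 563 CPM in wild-type vehicle, 543, 618, 622 and 658 in wild-type ivermectin, 949, 740, 836 and 854 in knockout vehicle and 858, 836, 909 and 906 in knockout ivermectin libraries. Every library labelled knockout was above every wild-type library. The α-cell marker sum, by contrast, was lower in that line. The log2 difference between the lines was 0.49 in vehicle (SE 0.0668) and 0.53 in ivermectin (SE 0.0647). Ivermectin against vehicle differed by 0.02 in wild type (SE 0.0681) and 0.05 in the line labelled knockout (SE 0.0633), with overlap in both.

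Adh1 had the same direction as Ttr and a smaller difference in vehicle. Its level was 252, 182, 202 and 190 CPM in wild-type vehicle, 194, 185, 176 and 184 in wild-type ivermectin, 251, 249, 267 and 270 in knockout vehicle and 277, 290, 244 and 268 in knockout ivermectin libraries. In vehicle the lines overlapped through wild-type replicate 1, and in ivermectin they did not overlap. The log2 difference between the lines was 0.34 in vehicle (SE 0.0794) and 0.55 in ivermectin (SE 0.0752). The ivermectin differences were -0.15 in wild type (SE 0.0833) and 0.06 in the line labelled knockout (SE 0.0714).

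Rbp4 was highest in the wild-type vehicle libraries, at 101, 68.5, 75.9 and 88.3 CPM. It was at 57.5, 64.1, 62.3 and 65.8 CPM in wild-type ivermectin, 62.7, 51.2, 69.3 and 63.6 in knockout vehicle and 58.4, 53.7, 76.4 and 62.7 in knockout ivermectin libraries. The wild-type vehicle libraries were all above the wild-type ivermectin libraries and overlapped both knockout groups. Ivermectin against vehicle in wild type differed by -0.42 on the log2 scale (SE 0.126), and the difference of the line labelled knockout was -0.43 in vehicle (SE 0.124) and 0.01 in ivermectin (SE 0.120). The difference in vehicle was called by the test given below, and without wild-type vehicle replicate 1 it was -0.33 and not called. The first 2 of these comparisons share the wild-type vehicle libraries.

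Ambp differed most between the lines among the 5 genes that passed the filter. Its level was 94.4, 74.3, 74.8 and 83.6 CPM in wild-type vehicle, 69.5, 76.2, 80.9 and 59.7 in wild-type ivermectin, 13.9, 9.03, 9.48 and 14.8 in knockout vehicle and 19.8, 14.9, 17.0 and 11.6 in knockout ivermectin libraries. Wild-type and knockout-labelled libraries did not overlap in either treatment. Ambp was 6.93-fold lower in the line labelled knockout in vehicle (log2 difference -2.79, SE 0.165) and 4.48-fold lower in ivermectin (-2.16, SE 0.150). Sst, which makes up most of the δ-cell marker sum, and the ductal marker sum were also lower in that line without overlap within either treatment, and their part in this difference was not tested. The ductal sum was mostly Spp1: Krt19 was at 0 in every group, and Cftr and Sox9 had at most 8 counts per group. The hepatocyte sum was lower without overlap in vehicle and overlapped in ivermectin, and its part was not tested either. Fewer cells of a type and less RNA per cell cannot be told apart in bulk libraries. Ivermectin differences overlapped, at -0.18 in wild type (SE 0.121) and 0.45 in the line labelled knockout (SE 0.213).

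Hnf4a, the factor read at the highest level of the 4, was alike in the groups within its spread. It was at 43.8, 36.2, 31.0 and 37.2 CPM in wild-type vehicle, 34.5, 33.4, 34.5 and 29.9 in wild-type ivermectin, 38.9, 38.1, 35.4 and 36.0 in knockout vehicle and 38.6, 26.9, 34.0 and 31.7 in knockout ivermectin libraries. The log2 difference between the lines was 0.00 in vehicle (SE 0.142) and -0.02 in ivermectin (SE 0.134), and that of ivermectin was -0.15 in wild type (SE 0.147) and -0.17 in the line labelled knockout (SE 0.127). All 4 comparisons overlapped.

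The other 3 factors were near the counting limit. Foxa1 had 0, 0, 0 and 0 counts in wild-type vehicle, 2, 1, 0 and 0 in wild-type ivermectin, 6, 6, 10 and 12 in knockout vehicle and 16, 14, 5 and 7 in knockout ivermectin libraries, so the counts of the lines did not overlap. At the limit of 3 counts, a library with 0 in wild-type vehicle could be at 2.82 to 3.36 CPM, beside 3.01 CPM in the lowest library labelled knockout, so single libraries are not separated at this depth. Summed over each group in vehicle, 34 counts in the line labelled knockout stood against 0, and the lower bound of the 95% exact interval of their CPM ratio was 4.50 (counting error only). In ivermectin 42 counts against 3 gave a CPM ratio of 13.9 (95% exact interval 4.44 to 70.1, counting error only). Hnf4g had 7, 2, 1 and 6 counts in wild-type vehicle, 9, 7, 9 and 5 in wild-type ivermectin, 7, 10, 11 and 11 in knockout vehicle and 4, 10, 8 and 7 in knockout ivermectin libraries. Foxa3 had 3, 0, 3 and 4, then 3, 6, 7 and 1, then 4, 7, 1 and 6, then 4, 3, 6 and 4 counts in the same order of groups. Both overlapped in all comparisons. Between the lines in vehicle the ratio of summed CPM was 1.26 for Hnf4g (95% exact interval 0.687 to 2.41) and 0.928 for Foxa3 (0.406 to 2.25), so a change of less than these bounds was not detectable at this depth.

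Across all 10820 genes tested, edgeR's quasi-likelihood test with Benjamini-Hochberg adjustment at 0.05 called 20.7% of genes between the lines in vehicle and 27.8% in ivermectin. Of the 5 tested genes described here, 4 were called in vehicle (Adh1, Ambp, Rbp4 and Ttr) and 3 in ivermectin (Adh1, Ambp and Ttr), and nothing is read from these counts, since the genes were listed with those differences known. For ivermectin against vehicle the test called 0 of the 5 in wild type, beside 0.601% of all genes, and 0 of the 5 in the line labelled knockout, beside 0% of all genes. For the interaction of line and ivermectin it called 0 of the 5, beside 0.222% of all genes. DESeq2 also called 0 of the 8 in these 3 comparisons. Over all genes, 563 had an unadjusted p under 0.05 for ivermectin in wild type, 820 in the line labelled knockout and 553 for the interaction. Foxa1 failed the filter, which asks for enough counts in at least 4 libraries, and was called between the lines in both treatments without a filter and with DESeq2.

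**Figure D2:**
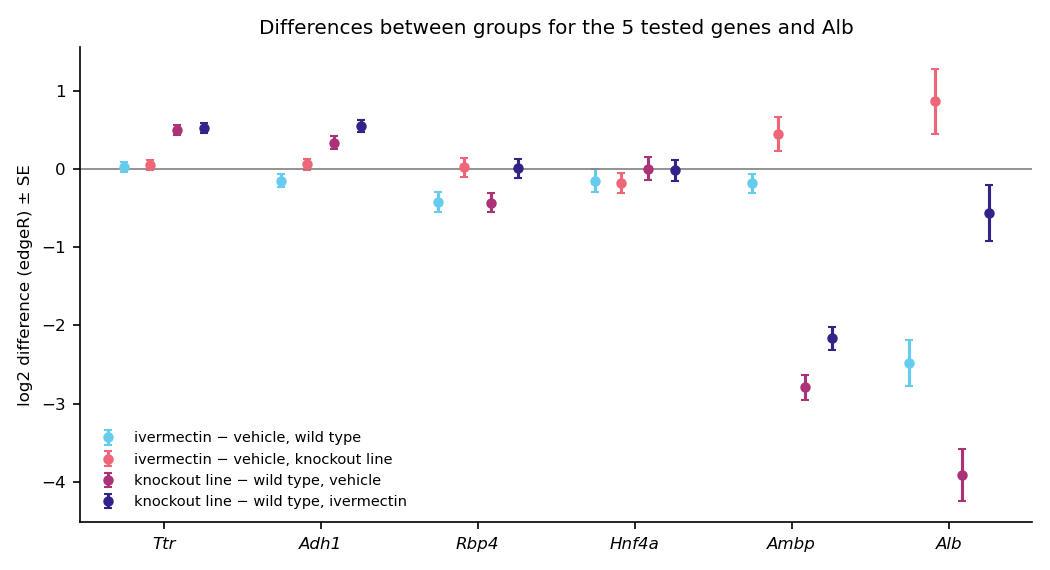
log2 difference from edgeR (y axis, ± SE) in the 4 comparisons for the 5 tested genes and Alb (x axis). Between the lines, Ttr and Adh1 lie at 0.34 to 0.55 and Ambp at -2.79 and -2.16, while Alb differs by -2.48 with ivermectin in wild type, where the 5 genes lie between -0.42 and 0.02.

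Alb itself was at 923, 328, 380 and 685 CPM in wild-type vehicle, 172, 64.1, 57.7 and 112 in wild-type ivermectin, 52.3, 17.1, 36.4 and 49.8 in knockout vehicle and 144, 28.0, 71.2 and 29.8 in knockout ivermectin libraries. Its highest and lowest library differed 54.1-fold. The same ratio was 1.63 for Hnf4a, 1.65 for Adh1, 1.75 for Ttr, 1.98 for Rbp4 and 10.5 for Ambp. The mean of the wild-type vehicle libraries over that of the other 12 was 8.33 for Alb, 0.772 for Ttr, 0.867 for Adh1, 1.08 for Hnf4a, 1.34 for Rbp4 and 2.47 for Ambp. Of the 5 genes, only Rbp4 shared with Alb that all wild-type vehicle libraries were above all wild-type ivermectin libraries. The Rbp4 difference was not called there. The share of all tested genes with such a separation was not counted, so nothing is read from it.

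Within groups, the slope of each gene on Alb was estimated over the 16 libraries, as log2 units per log2 unit of Alb. The slope was 0.03 for Ttr (SE 0.0323), 0.04 for Adh1 (SE 0.0367), 0.10 for Rbp4 (SE 0.0578), 0.10 for Ambp (SE 0.0759) and 0.10 for Hnf4a (SE 0.0648). All 5 lay inside the range from the 5th to the 95th percentile of all tested genes, -0.14 to 0.14, with Hnf4a above 91.3%, Ambp above 90.8%, Rbp4 above 90.1%, Adh1 above 72.9% and Ttr above 70.7% of them, and all were under the lowest of 15 hepatocyte genes, which ranged from 0.34 to 1.51 with a median of 0.90. As a description over 16 libraries that share depth, Pearson's r with Alb within groups was 0.60 for Ambp, 0.59 for Hnf4a, 0.47 for Rbp4, 0.33 for Adh1 and 0.24 for Ttr. The Rbp4 slope was 0.18 without knockout ivermectin replicate 1, and the Ambp slope was 0.16 without wild-type ivermectin replicate 1 or 3. Both lay outside that range, which came from all 16 libraries and was not computed again for these fits. With Alb as a covariate the Rbp4 difference between the lines in vehicle became -0.06 and was no longer called, the Adh1 difference became 0.48 and was no longer called, and Ttr (0.62) and Ambp (-2.40) were still called. In that fit the Hnf4a difference in vehicle was 0.40, not called. Alb in wild-type vehicle (328 to 923 CPM) overlapped neither wild-type ivermectin (57.7 to 172) nor knockout vehicle (17.1 to 52.3). The covariate fit therefore extrapolates between these groups, and nothing is read from a call lost in it.

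**Figure D3:**
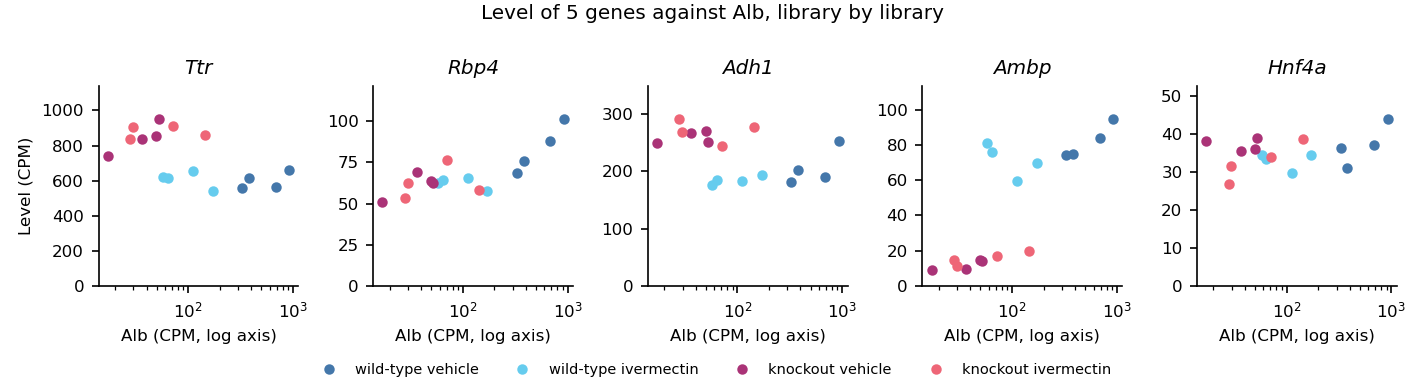
CPM of the 5 tested genes (y axis, from 0) against Alb (x axis, log scale) in the 16 libraries, coloured by group. Alb spans 17.1 to 923 CPM; Ttr and Ambp separate by line, Adh1 overlaps between the lines through wild-type vehicle replicate 1, and Rbp4 reaches its highest values, 88.3 and 101 CPM, in the 2 libraries with the most Alb.

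**Figure D4:**
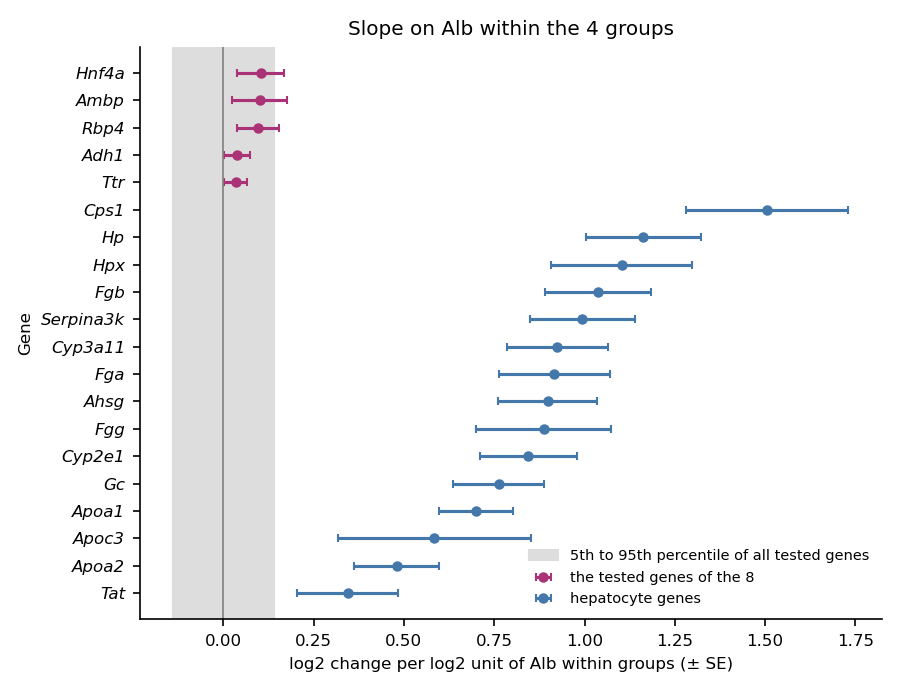
Slope of log2 level on log2 Alb within the 4 groups (x axis, ± SE) for the 5 tested genes and 15 hepatocyte genes (y axis); the grey band is the 5th to 95th percentile of all tested genes. The 5 genes lie between 0.03 and 0.10, and the hepatocyte genes between 0.34 and 1.51.

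The genes whose log2 CPM was most like each of the 5 over the 16 libraries were found by Pearson's r, given as a description since libraries share groups and depth. For Rbp4 they were Serpina1b (0.85), F2 (0.83) and Cps1 (0.81), all known as transcripts of hepatocytes. For Ttr they were Gnb2l1 (0.98), Rabac1 (0.98) and Gabarap (0.98), and for Adh1 Col6a3 (0.94), Lpcat3 (0.93) and Tubg1 (0.93). For Ambp they were Ndn (0.98), Chgb (0.98) and Adra2a (0.98). For Hnf4a they were Pqlc2 (0.79), Fancg (0.76) and Slc39a14 (0.76).

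Of 19 other liver-enriched transcription factors, 9 passed the filter. Foxa2, the FOXA factor most known from islets, had 61.9 ± 14.6 CPM with vehicle in wild type (SD, n = 4). It was not called in any comparison, with an edgeR adjusted p of 0.925 between the lines in vehicle. In ivermectin its difference between the lines was -0.27 (SE 0.122, edgeR adjusted p = 0.104). Onecut2 fell between the lines by 0.46 on the log2 scale in vehicle (SE 0.102, edgeR adjusted p = 0.000869) and by 0.57 in ivermectin (SE 0.0956, edgeR adjusted p = 2.57e-05). In vehicle its difference with Alb as a covariate was -0.56 with an edgeR adjusted p of 0.143, and the adjusted p ranged from 0.000123 to 0.143 over 22 alternatives. Gata6 rose by 1.99 in vehicle (SE 0.530, edgeR adjusted p = 0.00578). It had 6 counts in all in the wild-type vehicle group and 48 in the knockout vehicle group, so it passed the filter mainly through the line in which it was higher, and with Alb as a covariate its difference was 1.14 and its adjusted p 0.589, in a range from 0.00283 over 20 alternatives. Those 2 of 9 were the list's calls in vehicle, beside 20.7% of all genes, 1 higher and 1 lower, with a median of -0.11 beside 0.00 over all genes.

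In ivermectin 3 of the 9 were called, beside 27.8% of all genes. Cebpb fell by 0.54 (SE 0.139, edgeR adjusted p = 0.0033), Onecut2 as above, and Gata6 rose by 1.16 (SE 0.415, edgeR adjusted p = 0.0343), with a list median of -0.27 beside 0.00 over all genes. The Gata6 call was lost without wild-type ivermectin replicate 1 (edgeR adjusted p = 0.105), 2 (0.112) or 3 (0.103), without knockout ivermectin replicate 3 (0.0751) or 4 (0.0743), with Alb as a covariate (0.101) and with DESeq2 (0.145). The Gata6 difference was 0.98 with Alb as a covariate and 1.16 with DESeq2, and 1.75 without wild-type ivermectin replicate 4. None of the 9 was called for ivermectin in either line or for the interaction. The other factors of the list failed the filter and were not tested. Among them Cebpa had 26, 7, 6 and 4 counts in the order of groups above, and Nr1h4 had 14, 11, 23 and 23.

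Of 26 genes of retinoid and alcohol metabolism, the pathways of Rbp4 and Adh1, 9 passed the filter. Aldh1a1, a retinal dehydrogenase that hepatocytes also express, fell by 3.87 between the lines in vehicle (SE 0.678, edgeR adjusted p = 4.79e-05), or by 4.68 without knockout vehicle replicate 1. Its group means of 10.8, 2.56, 0.686 and 1.03 CPM, in the order of groups above, were highest in wild-type vehicle. The groups held 42, 19, 5 and 7 counts in all, so Aldh1a1 passed the filter mainly through wild-type vehicle, where it was higher. Ivermectin against vehicle in wild type differed by -1.89 for Aldh1a1 (SE 0.528, edgeR adjusted p = 0.145), with overlap, and was not called. With Alb as a covariate its difference was 1.02 (edgeR adjusted p = 0.785). Rxrb, a retinoid X receptor, rose by 0.39 in vehicle (SE 0.112, edgeR adjusted p = 0.0104), and lost the call without wild-type vehicle replicate 2 (edgeR adjusted p = 0.0727) and with Alb as a covariate (0.411), where its difference was 0.38. These were the 2 calls among the 9 in vehicle, beside 20.7% of all genes, with a list median of -0.19. In ivermectin 1 of the 9 was called, beside 27.8% of all genes. It was Adh5, another alcohol dehydrogenase, which rose by 0.25 (SE 0.0952, edgeR adjusted p = 0.0483). That call was lost in 9 of the 16 fits that left out 1 library (wild-type vehicle replicate 2 or 4, wild-type ivermectin 1 or 2, knockout vehicle 1, 3 or 4, knockout ivermectin 3 or 4), where the adjusted p reached 0.205. It was also lost with DESeq2 (0.134) and with relative log expression factors in edgeR (0.0504).

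The human orthologs were read in single cells of pancreatic islets from 6 donors, all entered as without disease, with cell types as annotated by the study that made the cells. Counts were summed per donor and type over donors with at least 10 cells of the type, which gave 164 β-cells and 437 α-cells of 6 donors each, 43 δ-cells and 64 γ-cells of 3 donors each, 123 ductal cells of 4 donors and 99 acinar cells of 2 donors. The annotated types had their markers: median INS was 169578 CPM in β-cells and 52.0 to 312 CPM in the other 5 types. The types were clustered on the same genes, so their differences are a description. CPM compares types within 1 gene, not genes with each other.

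In these cells the list was not particular to β-cells, though TTR, RBP4 and HNF4A were read in β-cells of all 6 donors. With at least 10 cells per donor and type, none of the 10 orthologs had its highest median in β-cells. TTR was highest in α-cells, with a median of 56881 CPM (33037 to 67067), against 2796 CPM in β-cells (1439 to 4882), and α-cells were above β-cells in 6 of 6 donors. GCG, the glucagon gene, was at 109889 CPM in α-cells and 216 CPM in β-cells. TTR counts per GCG count were 0.282 to 0.985 over donors in α-cells and 8.41 to 50.2 in β-cells, and these ranges did not overlap. In ductal cells the same ratio was 0.245 to 1.26, and TTR there ranged from 22.9 to 6311 CPM beside GCG of 18.2 to 24961 CPM.

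RBP4 was highest in δ-cells (median 6865 CPM, 5044 to 15419) and next in β-cells (2268 CPM, 959 to 10108). δ-cells were above β-cells in 3 of 3 donors with both types, and β-cells above α-cells (4.01 CPM) in 6 of 6. RBP4 counts per SST count were 0.0262 to 0.0420 in δ-cells and 0.939 to 173 in β-cells.

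AMBP and ADH1C were exocrine and duct genes in these cells. AMBP was at a median of 925 CPM in ductal cells (552 to 2026), 180 CPM in acinar cells and 0.263 CPM in β-cells, and ductal cells were above β-cells in 4 of 4 donors. ADH1C was at 830 CPM in acinar and 350 CPM in ductal cells and at 0.0885 CPM in β-cells. ADH1A and ADH1B were at 15.8 CPM or less by median in every type. These 3 genes are near-identical, stand beside the single mouse Adh1, and could share reads. The mouse line, with vehicle in wild type, read Ambp at 81.8 ± 9.44 and Adh1 at 206 ± 31.5 CPM (SD, n = 4), where human β-cells had a median under 1 CPM of AMBP and ADH1C.

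Of the factors, HNF4A was read in all 6 types and was lower in β-cells (8.67 CPM, 0.490 to 14.4) than in α-cells (46.5 CPM, 25.0 to 94.8) in 6 of 6 donors. Acinar (59.2 CPM), γ- (47.0 CPM), α- and ductal cells (36.7 CPM) had overlapping ranges. FOXA3 was highest in γ-cells (25.1 CPM) and α-cells (18.3 CPM) and at 2.14 CPM in β-cells, below α-cells in 6 of 6 donors. HNF4G was read in ductal (11.7 CPM) and acinar cells (9.19 CPM) and at 0.472 CPM or less by median in the endocrine types. FOXA1 was at 1.08 CPM or less by median in every type. ALB was at 930 CPM in acinar cells (839 to 1021) and 0.162 CPM in β-cells, and 62.7% of its counts lay in 10 of 1081 cells.

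**Figure D5:**
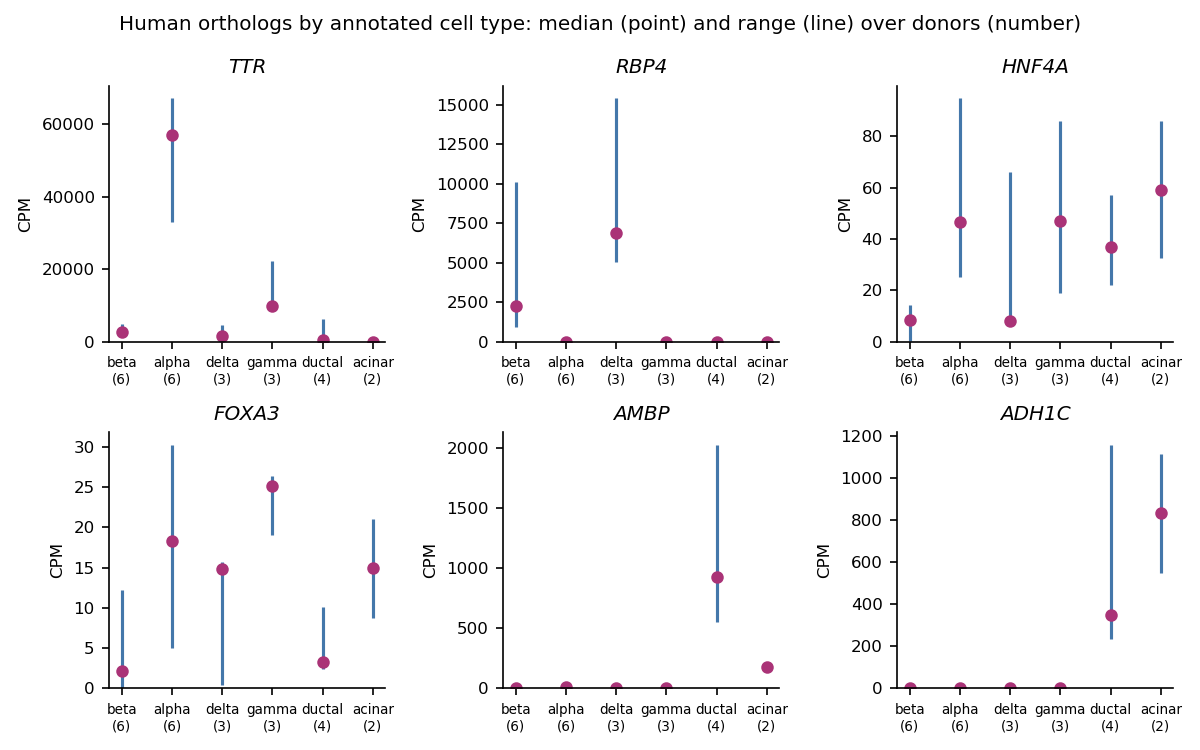
CPM of 6 human orthologs (y axis, from 0) by annotated cell type (x axis, with the number of donors); points are medians and lines the lowest to highest donor. TTR is highest in α-cells, RBP4 in δ- and then β-cells, AMBP in ductal and ADH1C in acinar cells, and HNF4A and FOXA3 are lower in β- than in α-cells.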

How the data were processed

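Polyadenylated RNA of 16 libraries was used as the table of whole-number counts deposited by the authors, which equals the expected counts of the deposited per-library RSEM tables rounded down (373264 of 373264 values). The deposited TPM values came from the same tables. The submitters' processing notes name mm10, bcl2fastq, STAR 2.7.2b, RSEM 1.3.3 and DESeq2 1.32.0. Of 23329 genes, 10820 passed edgeR 4.0.16's filterByExpr (minimum count 10, minimum total 15). Differences came from its quasi-likelihood test in R 4.3.3 with TMM factors and 1 mean per group over all 16 libraries, adjusted by Benjamini-Hochberg at 0.05. The fit was tested on simulated counts. Likeness and the Alb covariate used log2 CPM with a prior count of 2. Alternatives were DESeq2 1.42.0, relative log expression factors, no filter, rounded expected counts, a replicate block, Alb as a covariate and leaving out each library.

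The genes and lists were chosen with earlier results of these data known. Named are the 8 genes, Alb, up to 4 called genes per list and comparison with the largest difference, and for each tested gene the 3 most like it. Replicates differed beyond counting noise (chi-square per degree of freedom 1.16 to 6.81).

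The deposited single-cell counts, made with RSEM per the series' design text, held 1081 cells with distinct names, all with a passing quality entry. Tables described for donors with and without type 2 diabetes were identical and were used once; no diabetic donor is analysed here. No doublet caller was run. A list of β-cell target genes is not reported here. Cells held a median of 486350 counts.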

Additional observations from a re-analysis of the deposited data

Results flagged for a closer look

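Foxa3 in wild-type vehicle replicate 2 was at 0 CPM and lay far from the other 3 libraries of its group, at 3.21, 3.37 and 3.72 CPM. Those values stand for counts of 0 against 3, 3 and 4, at or near the limit of 3 counts. It was the 1 value found in 35 groups of 4 examined, and chance gives about 1 in 20.

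Response here means only ivermectin minus vehicle. For Alb it differed between the lines, with a log2 difference of responses of 3.34 (SE 0.513, edgeR adjusted p = 0.000501). All 16 hepatocyte genes, Alb among them, were lower with ivermectin in wild type (15 called). All 16 had a positive difference of responses (9 called), and the cause was not tested. Alb was lower with ivermectin in 4 of 4 wild-type libraries than in any wild-type vehicle library. The 5 tested genes of the 8 had differences of responses from -0.02 (Hnf4a) to 0.63 (Ambp, SE 0.245), and none was called.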

How the results depend on the processing

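With Alb as a covariate the number of the 8 genes called between the lines in vehicle was 2 (Ambp and Ttr) in place of 4, and the cause was not tested. With 1 library left out it was 4 to 5 in vehicle and 3 to 4 in ivermectin, the added gene being Foxa1, which then passed the filter, and 0 to 0 in the other comparisons. Without wild-type vehicle replicate 1 the 4 in vehicle held Foxa1 and not Rbp4. Without a filter and with DESeq2 it was 5 and 4. The replicate numbers did not pair the libraries: over 24 same-numbered pairs, r was -0.0566 to 0.145, and 6 of 16 libraries were most like their own number. The replicate block gave 4, 3, 0, 0 and 0 calls among the 8 genes, and 47 interaction calls over all genes in place of 24. Over all genes, calls with Alb as a covariate were 403 in place of 2240 between the lines in vehicle and 1, not 65, for wild-type ivermectin against vehicle. Leaving out wild-type ivermectin replicate 1 raised the 65 to 100. The interaction count was 0 with Alb as a covariate, and 48, 14 and 8 without wild-type ivermectin replicate 1, wild-type ivermectin replicate 3 and knockout ivermectin replicate 1. Without a filter calls for ivermectin were 140 in wild type and 23, not 0, in the line labelled knockout, with 82 for the interaction. Aldh1a1 reversed to 1.02 with Alb as a covariate, in a fit that extrapolates between vehicle groups without overlap in Alb. The cause of that change was not tested either. The cell type with the highest median was the same for 9 of 10 human orthologs with at least 5 cells or without hormone counts (an alternative added after seeing the data; HNF4A differed in both), and for 6 with at least 20 cells, where fewer donors remain. Depth limits Foxa1, Foxa3 and Hnf4g.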
